A study of Mus musculus with 10 samples.

Results

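The genes of the cornified envelope were followed in RNA from mouse digit tip blastemas. The set holds the late cornified envelope (Lce), small proline-rich (Sprr) and S100-fused genes, with loricrin (Lor), involucrin (Ivl) and Kprp, that have a row in the deposited table of TPM, a unit of expression scaled to gene length and to the library. These were 44 of its 21729 genes: 14 Lce1, 6 Lce3, Lce6a, 2 Sprr1, 12 Sprr2, Sprr3, Sprr4, 4 S100-fused genes (Crnn, Flg2, Hrnr and Rptn) and the 3 single genes. They were chosen by gene name, and all 44 lay on chromosome 3 in the RefSeq table of GRCm38.p6. The order there ran from Lor through the Sprr genes, Ivl, the Lce genes and Kprp to Crnn, Flg2, Hrnr and Rptn.

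The mutants were ΔLARM1/2 animals, in which the limb enhancers LARM1 and LARM2 of Lmx1b are deleted; Lmx1b encodes a homeodomain factor of dorsal limb identity. They were set against wild type mice of the same mixed CD1 C57Bl/6 background. Tissue was taken 12 days after amputation (12 dpa) from mice aged 33 days, with 3 mutant and 2 wild type libraries, and at 14 dpa from mice aged 35 days, with 3 mutant and 2 wild type libraries. Each library pooled 6 amputated central hindlimb digits. The labels do not say whether libraries of a group came from separate animals. Levels of Xist, given below, differed within each group, so no group came from a single animal. Mutant libraries low in Xist may still share an animal. P-values therefore speak of the scatter among these libraries only, some of which may be technical.

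The cornified envelope is the protein shell that replaces the plasma membrane of a keratinocyte as it dies in the outermost epidermis. Transglutaminases crosslink involucrin and other scaffold proteins beneath the membrane, and then add loricrin, small proline-rich proteins, which act as bridges, and late cornified envelope proteins. Their genes lie together in the epidermal differentiation complex. After amputation of a digit tip, epidermis closes over the wound before the blastema forms beneath it.

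Libraries held 69998104 to 101632364 expected counts, and the 44 genes took 0.897% to 2.41% of them. Lmx1b lay at 0.0788, 0.336 and 0.168 CPM (counts scaled to library size) in the mutant libraries and 2.68 and 2.94 CPM in the wild type ones at 12 dpa, and at 0.234, 0.0696 and 0.0278 CPM in the mutant libraries and 2.14 and 1.69 CPM in wild type at 14 dpa. Xist, which marks female cells, lay at 639, 0.284 and 0.280 CPM in the mutant libraries and 1148 and 0.626 CPM in wild type at 12 dpa. At 14 dpa Xist lay at 0.143, 667 and 0.222 CPM in the mutant libraries and 18.8 and 1377 CPM in wild type. Each group thus held libraries high and low in Xist, and sex was not in the fit. Whether a pool mixed digits of both sexes was not tested. Mutant 14 dpa replicate 1 goes against 1 of its labels, since its title and description say mutant and its genotype tag says wild type. It was treated as mutant, and its Lmx1b level lay within the range of the other mutant libraries. With the tag followed instead, 0 of 20216 genes passed edgeR's test over both days (5448 at an unadjusted p under 0.05). Suprabasal keratins, which mark differentiating epidermis, summed to 43962 to 59773 CPM in mutants and 23542 to 39531 CPM in wild type at 12 dpa, and to 59579.9 to 114518 CPM in mutants and 34377 to 45589.9 CPM in wild type at 14 dpa.

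Promoters are shown for 5 genes on which the results turn. Sprr2d and Sprr2e had large differences between genotypes, their neighbour Sprr2h did not pass the test, Sprr1a was the Sprr1 gene that did, and Lce1d had the highest level per length of all 44. Each line gives the 250 bases before the RefSeq transcription start on GRCm38.p6, 5′ to 3′, with matches of TGANTCA (the AP-1 motif) and TATAAA (the TATA box) in capitals.
Sprr2d chr3:92338890-92339139 plus strand: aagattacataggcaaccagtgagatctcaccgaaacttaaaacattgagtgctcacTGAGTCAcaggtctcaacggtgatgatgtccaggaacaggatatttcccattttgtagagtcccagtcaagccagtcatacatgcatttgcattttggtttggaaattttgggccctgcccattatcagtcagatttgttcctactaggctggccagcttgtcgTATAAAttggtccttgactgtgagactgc
Sprr2e chr3:92351893-92352142 plus strand: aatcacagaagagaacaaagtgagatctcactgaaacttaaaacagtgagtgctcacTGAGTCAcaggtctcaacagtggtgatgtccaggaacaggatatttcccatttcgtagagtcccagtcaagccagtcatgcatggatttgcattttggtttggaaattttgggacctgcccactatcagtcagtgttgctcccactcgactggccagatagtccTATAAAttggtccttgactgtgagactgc
Sprr2h chr3:92385435-92385684 plus strand: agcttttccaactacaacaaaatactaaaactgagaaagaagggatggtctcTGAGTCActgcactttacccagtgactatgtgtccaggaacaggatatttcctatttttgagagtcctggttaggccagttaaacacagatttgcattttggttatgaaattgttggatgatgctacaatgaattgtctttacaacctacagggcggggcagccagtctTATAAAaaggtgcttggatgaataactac
Sprr1a chr3:92485882-92486131 minus strand: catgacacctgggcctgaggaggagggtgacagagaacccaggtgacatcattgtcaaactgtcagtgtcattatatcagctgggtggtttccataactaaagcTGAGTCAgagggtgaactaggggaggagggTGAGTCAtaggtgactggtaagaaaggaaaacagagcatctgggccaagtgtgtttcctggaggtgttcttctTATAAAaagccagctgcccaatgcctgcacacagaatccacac
Lce1d chr3:92687211-92687460 minus strand: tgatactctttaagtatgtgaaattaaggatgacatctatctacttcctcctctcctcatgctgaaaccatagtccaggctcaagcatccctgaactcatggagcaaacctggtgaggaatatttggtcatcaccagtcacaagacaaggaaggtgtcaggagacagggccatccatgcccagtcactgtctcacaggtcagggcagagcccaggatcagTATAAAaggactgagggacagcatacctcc
In windows from 250 bases before to 50 after the start, Sprr2d and Sprr2e were 88.7% identical over a global alignment, and Sprr2d and Sprr2h 65.8%. RefSeq promoters were found for 40 of the 44 genes. Read on both strands, TGANTCA lay in 14 of the 40 windows, against 7.93% of all 27025 promoters in the table. It was in 7 of 10 Sprr2 promoters, both Sprr1 promoters, and those of Lor, Ivl, Crnn, Flg2 and Rptn, and in 0 of 20 Lce promoters. Its first base stood at -193 from the start in Sprr2d and Sprr2e and at -198 in Sprr2h, and the TATA box at -29 in all 3. TATAAA occurred in 19 of 40 windows, against 14.2% of all promoters. CACCC, a KLF motif, occurred in 20 of 40 (56.7% of all), and AACCNGTT, a GRHL motif, in that of Rptn alone (2.01% of all). In Sprr1a, 1 of the 2 TGANTCA matches overlapped a CACCC match. The windows of Sprr2a1, Sprr2a2 and Sprr2a3 held neither TGANTCA nor TATAAA, and that of Sprr2k held 2 TGANTCA matches and a TATA box. Aligned to Sprr2d, the windows of Sprr2a1, Sprr2a2 and Sprr2a3 were 46.7%, 46.7% and 50.6% identical, against 46.6% for Sprr1a and 49.0% for Lce1d. Whether these Sprr2a windows cover the same stretch as those of the other Sprr2 genes was not tested.

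Over both days together, bridge proteins of the Sprr families made up most of the genes that rose in mutants. By edgeR's quasi-likelihood test with Benjamini-Hochberg adjustment over 20216 genes, 14 of the 42 genes that passed the low-count filter rose (33.3%, where 21.5% of all genes tested did) and 0 fell (22.2% of all genes did). The 14 were 10 of 12 Sprr2 genes, Sprr1a, Lce3a, Lce1m and Hrnr. The median log2 fold change was 2.42 over the Sprr2 genes, 1.09 over the Sprr1 pair, 0.23 over Lce3, 0.17 over Lce1 and 0.35 over the S100-fused genes, beside 0.02 over all genes tested. At 12 dpa 8 of the 42 rose and 0 fell (19.0%; 7.18% of all genes rose and 9.34% fell), and at 14 dpa another count of 8 rose and 0 fell (16.1% of all genes rose and 17.2% fell). Leaving out wild type libraries changed the counts of a single day most: 1 rose at 12 dpa without wild type replicate 1 and 2 without replicate 2 (2.67% and 1.27% of all genes), and 1 rose at 14 dpa without wild type replicate 1 and 3 without replicate 2 (5.49% and 4.05% of all genes). Without mutant 14 dpa replicate 1, the library with the conflicting tag, 12 rose over both days and 5 at 14 dpa (20.0% and 11.3% of all genes).

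**Figure D1:**
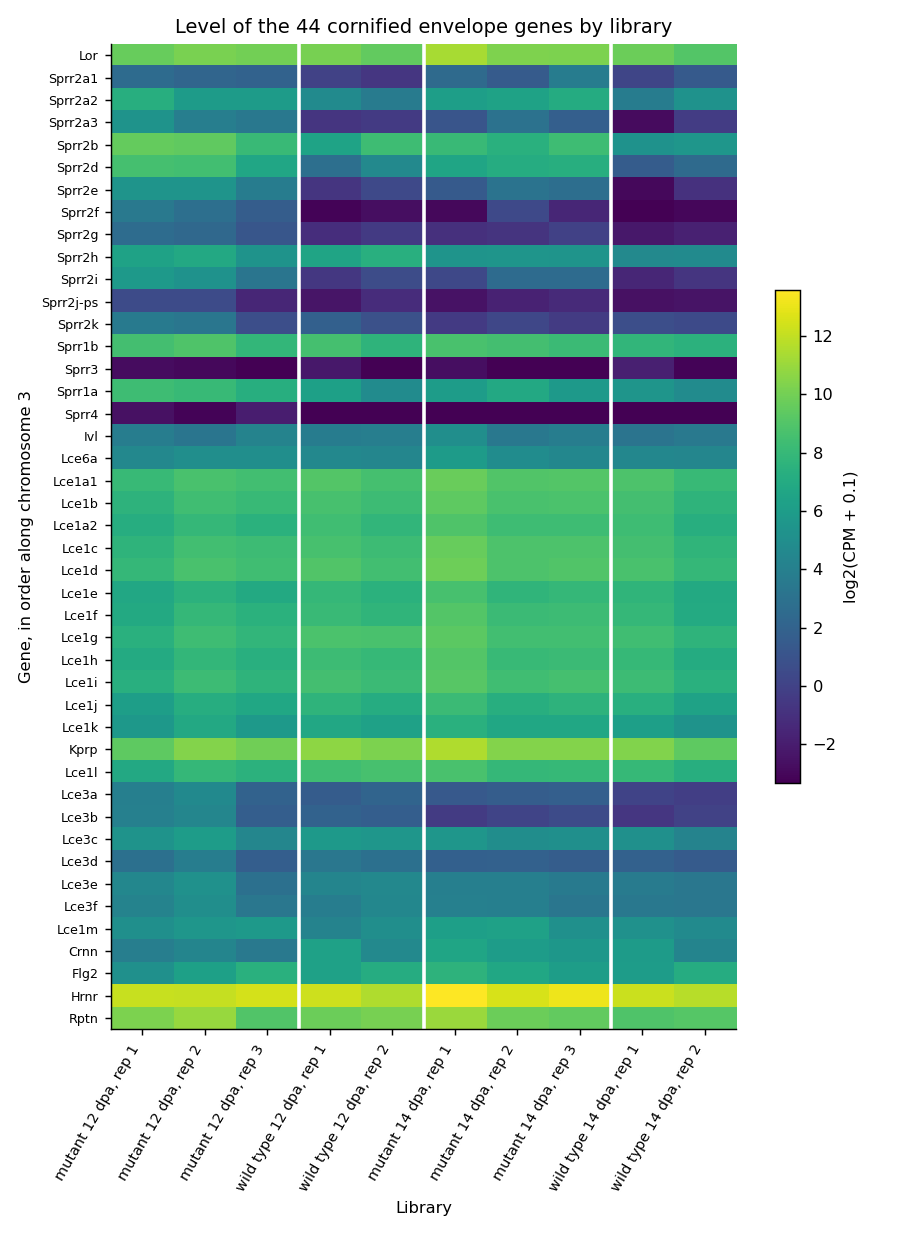
Level of each of the 44 genes, in their order along chromosome 3, in each of the 10 libraries, as log2(CPM + 0.1) on a colour scale; white lines separate the groups. Most Sprr2 rows are lighter (higher) in the mutant than in the wild type columns of the same day, and 13 of the 14 Lce1 rows are lightest in mutant 14 dpa replicate 1, all but Lce1m.

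In bulk tissue, more keratinocytes and more RNA per keratinocyte cannot be told apart. Keratin counts moved with genotype. Krt5 and Krt14, keratins of the basal layer, summed to 13623, 17094 and 14440.3 CPM in the mutant libraries and 6839 and 6835 CPM in the wild type ones at 12 dpa, and to 14310.3, 12769 and 13812 CPM in the mutant libraries and 6446 and 5603 CPM in wild type at 14 dpa. The groups did not overlap on either day. Krt1 and Krt10, keratins of the suprabasal layers, summed to 43101, 54627 and 34933 CPM in the mutant libraries and 37402 and 21075 CPM in wild type at 12 dpa, where the groups overlapped, and to 99890.0, 55027 and 65497 CPM in the mutant libraries and 43874 and 31683 CPM in wild type at 14 dpa, where they did not. Scaling libraries to Krt5 and Krt14 counts moved the median log2 fold change of all genes to -1.13, and scaling to Krt1 and Krt10 counts moved it to -0.76. Under the first, 7 of the 42 genes were called higher and 22 lower over both days (1.07% and 83.2% of all genes), and under the second 11 higher and 12 lower (1.62% and 46.5% of all genes). Each scaling thus moved genes in general, not this set alone. Relative to the shifted median of all genes, the family medians stood 2.38 and 2.36 higher for Sprr2, 1.08 and 1.15 for Sprr1, 0.31 and 0.21 for the S100-fused genes, 0.18 and 0.11 for Lce3 and 0.13 and 0.15 for Lce1. Before that shift is taken off, Sprr2 alone had a positive median under both scalings (1.26 and 1.59). Scaling changes all counts of a library by the same factor, so distances from the median of all genes stay near those without scaling. Here and below, such distances are therefore no test of whether a difference outlasts the scaling.

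The Sprr2 genes encode short proline-rich bridge proteins and stand in a tandem array; reads of near-identical copies were divided among them, so single values are uncertain and the sum is firmer. Summed over the 12 genes, CPM averaged 1137 ± 534 CPM in mutants and 372 ± 208 CPM in wild type at 12 dpa, a ratio of 3.06. At 14 dpa the sum averaged 544 ± 117 CPM in mutants and 104 ± 29.2 CPM in wild type, a ratio of 5.23 (SD, n = 3 mutant and 2 wild type on each day). The groups did not overlap on either day, though mutant 12 dpa replicate 3, at 532 CPM, lay close to wild type replicate 2, at 519 CPM. Per 1000 Krt1 and Krt10 counts, Sprr2 counts were 35.8, 24.4 and 15.2 in the mutant libraries and 5.99 and 24.6 in the wild type libraries at 12 dpa, which overlapped. The same ratio at 14 dpa was 4.95, 8.38 and 10.3 in the mutant libraries and 1.90 and 3.93 in wild type, which did not overlap.

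Sprr2b had the highest TPM of the Sprr2 genes and Sprr2d the second highest. At 12 dpa Sprr2d had 377, 344 and 103 CPM in the mutant libraries, against 7.04 and 24.2 CPM in wild type. At 14 dpa Sprr2d had 95.8, 139 and 157 CPM in the mutant libraries, against 2.89 and 5.51 CPM in wild type. Every mutant library was above every wild type library of its day, and mutant 12 dpa replicate 3 was the lowest mutant at 12 dpa. Sprr2d rose by a log2 fold change of 4.54 (edgeR adjusted p = 0.000758, SE 0.57) over both days, 4.13 (adjusted p = 0.0132, SE 0.78) at 12 dpa and 4.95 (adjusted p = 0.00510, SE 0.82) at 14 dpa. Without wild type 12 dpa replicate 1 its 12 dpa value was 3.503 (adjusted p = 0.0560), past the threshold no longer.

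The more abundant Sprr2b differed by less. At 12 dpa Sprr2b had 755, 688 and 281 CPM in the mutant libraries, against 88.02 and 318 CPM in wild type, so that mutant replicate 3 lay below wild type replicate 2. At 14 dpa Sprr2b had 274, 165 and 313 CPM in the mutant libraries, against 38.6 and 46.3 CPM in wild type, and the groups did not overlap. Sprr2b rose over both days by 2.03 (edgeR adjusted p = 0.00661, SE 0.43) and at 14 dpa by 2.56 (adjusted p = 0.0179, SE 0.63) on the log2 scale, and its 12 dpa value was 1.502 (adjusted p = 0.119, SE 0.60). Without mutant 14 dpa replicate 1 the 14 dpa value was 2.49 (adjusted p = 0.0518).

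The largest log2 fold changes belonged to Sprr2f, Sprr2e, Sprr2d, Sprr2a3 and Sprr2i. At 12 dpa Sprr2e had 42.5, 42.3 and 13.8 CPM in the mutant libraries, against 0.518 and 1.21 CPM in wild type. At 14 dpa Sprr2e had 2.62, 8.39 and 6.77 CPM in the mutant libraries, against 0.0292 and 0.433 CPM in wild type, which rest on 2 and 42 counts. Each mutant library was above each wild type library of its day, and the mutants were lower at 14 than at 12 dpa. Sprr2e rose by 4.91 (edgeR adjusted p = 0.00135, SE 0.70) on the log2 scale over both days, 5.25 (adjusted p = 0.0127, SE 0.98) at 12 dpa and 4.57 (adjusted p = 0.0130, SE 1.01) at 14 dpa. Few single-day calls of the set, here and below, held when a wild type library of that day was left out, as given above.

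Sprr2i and Sprr2a3 had the same order of groups. At 12 dpa Sprr2i had 54.99, 39.01 and 9.46 CPM in the mutant libraries, against 0.572 and 1.40 CPM in wild type. At 14 dpa Sprr2i had 1.15, 6.03 and 5.86 CPM in the mutant libraries, against 0.248 and 0.516 CPM in wild type. The wild type values of that day rest on 17 and 50 counts. The library with the conflicting tag was the lowest mutant at 14 dpa, still above both wild type libraries. Sprr2i rose by 4.30 (edgeR adjusted p = 0.00333, SE 0.76) on the log2 scale over both days, 5.12 (adjusted p = 0.0201, SE 1.09) at 12 dpa and 3.47 (adjusted p = 0.0390, SE 1.06) at 14 dpa. At 12 dpa Sprr2a3 had 40.96, 14.9 and 10.9 CPM in the mutant libraries, against 0.518 and 0.640 CPM in wild type. At 14 dpa Sprr2a3 had 2.11, 8.29 and 3.35 CPM in the mutant libraries, against 0.0438 and 0.712 CPM in wild type, which rest on 3 and 69 counts. The groups again did not overlap on either day, and the tagged library was again the lowest mutant. Sprr2a3 rose by 4.39 (edgeR adjusted p = 0.00336, SE 0.78) on the log2 scale over both days, 5.26 (adjusted p = 0.0211, SE 1.15) at 12 dpa and 3.53 (adjusted p = 0.0382, SE 1.07) at 14 dpa.

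Sprr2f was nearly silent in wild type. Its counts were 1015, 540 and 274 in the mutant libraries, against 1 and 4 in wild type at 12 dpa. The 14 dpa libraries held 2, 122 and 18 counts in mutants, against 0 and 2 in wild type. The mutants thus lay above wild type at 12 dpa, and at 14 dpa the tagged mutant library held 2 counts, as did wild type replicate 2. Sprr2f rose by a fitted 6.45 (edgeR adjusted p = 0.00350, SE 1.19) on the log2 scale over both days and 7.65 (adjusted p = 0.0183, SE 1.63) at 12 dpa; at 14 dpa the value was 5.25 (adjusted p = 0.0550, SE 1.81). The 14 dpa counts give a ratio of 47.1 (95% exact interval 12.8 to 393, counting error only). Of the 142 mutant counts at 14 dpa 122 came from replicate 2. Without that library, an alternative chosen after seeing the data, the Sprr2f ratio was 11.1 (2.701 to 98.1), and without wild type replicate 1 it was 27.6 (7.498 to 230.03).

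Of the other Sprr2 genes, Sprr2a1, Sprr2a2 and Sprr2g also rose over both days, by 2.33 (edgeR adjusted p = 0.00584, SE 0.49), 2.01 (adjusted p = 0.00858, SE 0.45) and 2.52 (adjusted p = 0.00126, SE 0.40) on the log2 scale. All 3 had each mutant library above each wild type library of its day. Sprr2j-ps, annotated as a pseudogene by its name, rose by 1.75 (edgeR adjusted p = 0.0464, SE 0.63) at levels of 0.0781 to 1.37 CPM in mutants and 0.0729 to 0.340 CPM in wild type. It was called in 8 of the 17 fits that left the scaling to keratins and the tag aside, against all 17 for Sprr1a and the other 9 Sprr2 genes that rose. With scaling to Krt5 and Krt14 counts, Sprr1a, Sprr2a2 and Sprr2b were not called either. Their values there were 0.52, 0.86 and 0.86, where the median of all genes was -1.13.

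The exceptions in the array were Sprr2h and Sprr2k. At 12 dpa Sprr2h had 84.7, 117 and 40.9 CPM in the mutant libraries, against 95.02 and 157 CPM in wild type. At 14 dpa Sprr2h had 42.2, 45.3 and 42.1 CPM in the mutant libraries, against 25.03 and 27.4 CPM in wild type. The mutants overlapped wild type at 12 dpa and were all above it at 14 dpa, with values of -0.64 (adjusted p = 0.256, SE 0.37) and 0.72 (adjusted p = 0.173, SE 0.38) by edgeR. Over both days Sprr2h stood at 0.0386 (edgeR adjusted p = 0.918, SE 0.26), and this value was -1.13 with scaling to Krt5 and Krt14 and -0.85 with scaling to Krt1 and Krt10, where the median of all genes was -1.13 and -0.76. Sprr2k stood at 0.37 (edgeR adjusted p = 0.580, SE 0.500); at 14 dpa its 3 mutant libraries, at 0.638, 1.12 and 0.652 CPM, were all below the wild type libraries, at 1.58 and 1.28 CPM.

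**Figure D2:**
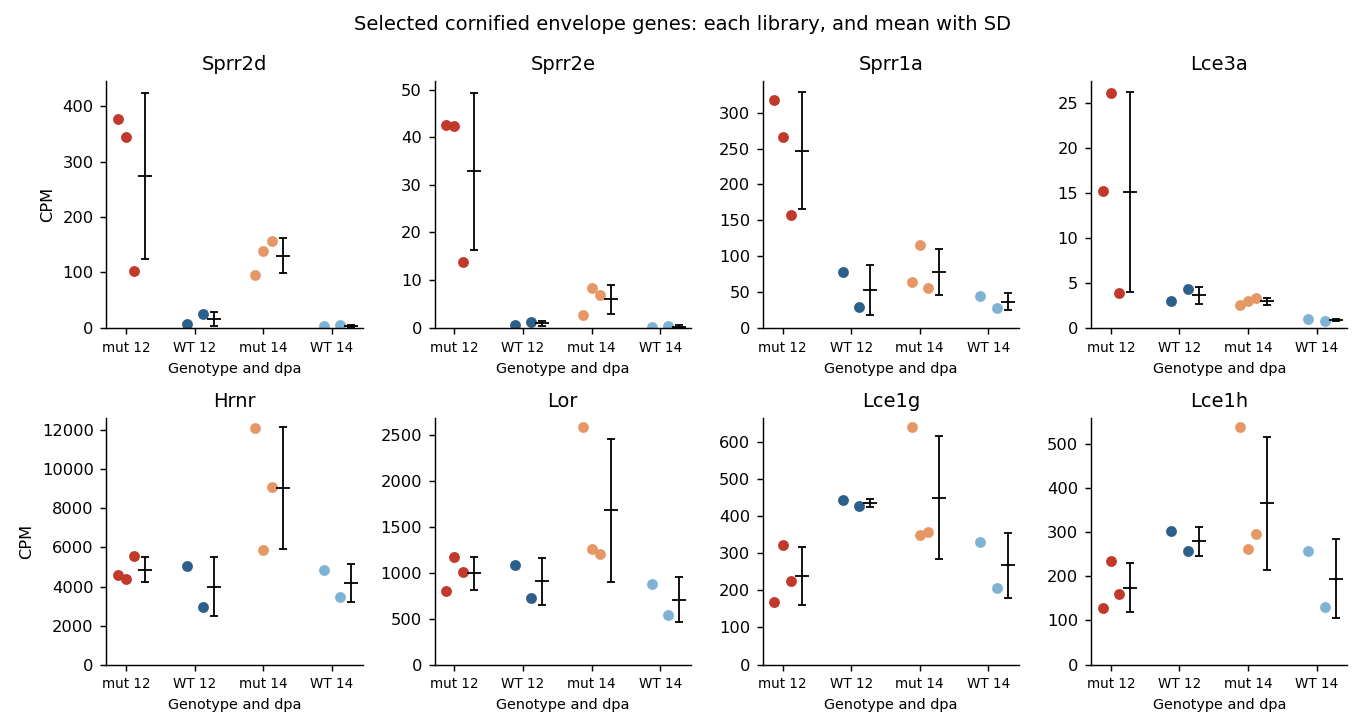
CPM of 8 genes in each library (points), with the mean and SD of each group to the right; mut is mutant, WT wild type, and 12 and 14 are dpa. Sprr2d, Sprr2e and Sprr1a lie higher in mutants on both days, whereas Lce1g and Lce1h lie lower in mutants at 12 dpa and higher at 14 dpa.

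The Sprr1 proteins are bridges of the same kind, and the pair differed. At 12 dpa Sprr1a had 317, 266 and 157 CPM in the mutant libraries, against 78.1 and 28.5 CPM in wild type. At 14 dpa Sprr1a had 63.8, 115 and 55.3 CPM in the mutant libraries, against 45.1 and 28.4 CPM in wild type. Every mutant library was above the wild type libraries of its day, by less at 14 dpa. Sprr1a rose by 1.65 (edgeR adjusted p = 0.00829, SE 0.37) on the log2 scale over both days and 2.21 (adjusted p = 0.0292, SE 0.54) at 12 dpa, and its 14 dpa value was 1.09 (adjusted p = 0.132, SE 0.51). Its 12 dpa call was lost without mutant replicate 1, mutant replicate 2 or wild type replicate 2, with values of 1.999 (adjusted p = 0.0593), 2.16 (adjusted p = 0.0622) and 1.66 (adjusted p = 0.144). At 12 dpa Sprr1b had 368, 480.3 and 227 CPM in the mutant libraries, against 391 and 207 CPM in wild type. At 14 dpa Sprr1b had 428, 364 and 295 CPM in the mutant libraries, against 226 and 186 CPM in wild type. The groups overlapped at 12 dpa and not at 14 dpa, and Sprr1b stood at 0.54 (edgeR adjusted p = 0.102, SE 0.24) over both days.

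Sprr3, a bridge protein of internal stratified epithelia, and Sprr4 were below the low-count filter and were not tested. Sprr3 had 4, 2 and 0 counts in the mutant libraries, against 8 and 0 in wild type at 12 dpa, and 4, 0 and 0 in mutants, against 12 and 1 in wild type at 14 dpa. Sprr4 had 6, 1 and 14 counts in the mutant libraries against 0 and 0 in wild type at 12 dpa, and 0 in every library at 14 dpa.

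Of the Lce3 genes, whose human counterparts are induced when the skin barrier is disrupted, 1 of 6 rose over both days (16.7%, where 21.5% of all genes did). Lce3a was the one called. At 12 dpa Lce3a had 15.3, 26.1 and 3.94 CPM in the mutant libraries, against 2.96 and 4.30 CPM in wild type, with mutant replicate 3 below wild type replicate 2. At 14 dpa Lce3a had 2.55, 2.99 and 3.33 CPM in the mutant libraries, against 0.948 and 0.774 CPM in wild type, without overlap. Lce3a rose by 1.92 (edgeR adjusted p = 0.0104, SE 0.46) on the log2 scale over both days, though not without wild type 14 dpa replicate 2 (adjusted p = 0.0506). Its neighbour Lce3b stood at 1.19 (edgeR adjusted p = 0.0786, SE 0.49). The more abundant Lce3c had 40.3, 64.6 and 21.8 CPM in the mutant libraries, against 56.3 and 46.2 CPM in wild type at 12 dpa. At 14 dpa Lce3c had 46.8, 31.3 and 33.5 CPM in the mutant libraries, against 35.2 and 18.9 CPM in wild type. Its groups overlapped on both days, with a log2 fold change of 0.0908 (edgeR adjusted p = 0.830, SE 0.30). Lce3e, the second in TPM, had 22.2, 36.5 and 7.37 CPM in the mutant libraries, against 20.3 and 23.3 CPM in wild type at 12 dpa and 15.6, 15.8 and 11.7 CPM in the mutant libraries, against 12.9 and 10.4 CPM in wild type at 14 dpa, overlapping at both; it stood at 0.16 (edgeR adjusted p = 0.747, SE 0.37).

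The Lce1 genes, whose proteins enter the envelope late, held the largest share of the summed TPM of the set in every library, 40.4% to 75.1%. In CPM, which is not scaled to length, the sum of the S100-fused genes was above that of Lce1 in every library. Lce1d had the highest mean TPM of the 44 genes (760.5, range 385 to 1511 over libraries) and Lce1a1 the second highest (745, range 391 to 1339). At 12 dpa Lce1d had 241, 422 and 342 CPM in the mutant libraries, against 498 and 355 CPM in wild type. At 14 dpa Lce1d had 904, 468 and 508 CPM in the mutant libraries, against 426 and 245 CPM in wild type. The groups overlapped at 12 dpa and not at 14 dpa, where the tagged library was far above the other mutants. Lce1d stood at 0.28 (edgeR adjusted p = 0.411, SE 0.26) over both days, -0.35 (adjusted p = 0.533, SE 0.36) at 12 dpa and 0.90 (adjusted p = 0.0899, SE 0.37) at 14 dpa. At 12 dpa Lce1a1 had 262, 429 and 351 CPM in the mutant libraries, against 541 and 383 CPM in wild type. At 14 dpa Lce1a1 had 850.0, 509 and 539 CPM in the mutant libraries, against 468 and 264 CPM in wild type. Its groups also overlapped at 12 dpa and not at 14 dpa, and Lce1a1 stood at 0.19 (edgeR adjusted p = 0.529, SE 0.23) over both days.

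The Lce1 genes other than Lce1m were all highest in mutant 14 dpa replicate 1. Of the nonzero counts of the 14 genes 97.9% were not whole, more than the 60.5% of Sprr2, so reads were divided among them and their values are not independent. At 12 dpa 13 of the 14 had a negative log2 fold change, with a median of -0.51 and 0 called. At 14 dpa all 14 were positive, with a median of 0.84, 0 called and 8 at an unadjusted p under 0.05, as were 45.8% of all genes. Without mutant 14 dpa replicate 1 the 14 dpa value of Lce1d was 0.54 (adjusted p = 0.244). Summed over the 14 genes, CPM averaged 2777 ± 792 CPM in mutants and 4036 ± 668 CPM in wild type at 12 dpa, a ratio of 0.688 with overlapping groups. At 14 dpa the sum averaged 5331 ± 1741 CPM in mutants and 2987 ± 1196 CPM in wild type, a ratio of 1.78 without overlap. Per 1000 Krt1 and Krt10 counts, Lce1 counts at 12 dpa were 46.7, 65.8 and 78.1 in the mutant libraries and 121 and 169 in wild type, without overlap. At 14 dpa they were 73.5, 76.6 and 67.8 in the mutant libraries and 87.4 and 67.6 in wild type, which overlapped. Lce1m, which lies apart from the others beyond Lce3, was the Lce1 gene that rose over both days, by 0.91 (edgeR adjusted p = 0.0291, SE 0.28). It was called in 8 of the 17 fits named for Sprr2j-ps. At 12 dpa Lce1m had 33.3, 46.3 and 55.7 CPM in the mutant libraries, against 18.4 and 32.3 CPM in wild type. At 14 dpa Lce1m had 74.3, 80.3 and 34.8 CPM in the mutant libraries, against 36.7 and 26.8 CPM in wild type, and its mutant replicate 3 lay below wild type replicate 1.

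Loricrin, the main glycine-rich protein of the envelope, rose at 14 dpa. At 12 dpa Lor had 803, 1169 and 1009.9 CPM in the mutant libraries, against 1085 and 727 CPM in wild type, which overlapped. At 14 dpa Lor had 2584, 1258 and 1200.4 CPM in the mutant libraries, against 879.5 and 537 CPM in wild type, which did not. Lor rose by 1.25 (edgeR adjusted p = 0.0354, SE 0.39) on the log2 scale at 14 dpa and stood at 0.13 (adjusted p = 0.833, SE 0.37) at 12 dpa and 0.69 (adjusted p = 0.0618, SE 0.27) over both days. Without mutant 14 dpa replicate 1 the 14 dpa value was 0.80 (adjusted p = 0.0714), and without wild type replicate 1 or 2 of that day it was 1.65 (adjusted p = 0.0639) or 0.88 (adjusted p = 0.231).

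Involucrin, an early scaffold protein, was scarce in every library. At 12 dpa Ivl had 14.4, 9.51 and 18.5 CPM in the mutant libraries, against 13.6 and 14.6 CPM in wild type, and at 14 dpa 32.1, 10.9 and 14.05 CPM in the mutant libraries, against 8.84 and 11.3 CPM in wild type. The groups overlapped on both days, and Ivl stood at 0.46 (edgeR adjusted p = 0.264, SE 0.31). Kprp, a proline-rich protein of the upper epidermis, had 670.2, 1376 and 968 CPM in the mutant libraries, against 1638 and 1212 CPM in wild type at 12 dpa. At 14 dpa Kprp had 2987, 1364 and 1408 CPM in the mutant libraries, against 1334 and 651 CPM in wild type, with all mutants above wild type. Kprp stood at 0.22 (edgeR adjusted p = 0.597, SE 0.32) over both days. Lce6a had 23.1, 32.2 and 31.8 CPM in the mutant libraries, against 23.9 and 21.7 CPM in wild type at 12 dpa and 62.3, 30.1 and 22.6 CPM in the mutant libraries, against 22.3 and 21.5 CPM in wild type at 14 dpa. Its groups overlapped at 12 dpa, its mutants lay above wild type at 14 dpa, the lowest by little, and Lce6a stood at 0.58 (edgeR adjusted p = 0.105, SE 0.26) over both days.

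The S100-fused proteins join a calcium-binding S100 domain to long repeats, and filaggrin, their best-known member, bundles keratin filaments. Hornerin (Hrnr) had the most counts of the 44 genes. At 12 dpa Hrnr had 4610.3, 4395 and 5575 CPM in the mutant libraries, against 5052 and 2946 CPM in wild type. At 14 dpa Hrnr had 12126, 5868 and 9105 CPM in the mutant libraries, against 4847 and 3487 CPM in wild type. The groups overlapped at 12 dpa and were apart at 14 dpa. Hrnr rose by 0.70 (edgeR adjusted p = 0.0379, SE 0.24) on the log2 scale over both days and 1.12 (adjusted p = 0.0331, SE 0.34) at 14 dpa, and stood at 0.28 (adjusted p = 0.589, SE 0.33) at 12 dpa; under the keratin scalings its value over both days was -0.45 and -0.0493, which is 0.67 and 0.71 above the median of all genes. Without mutant 14 dpa replicate 1 its 14 dpa value was 0.85 (adjusted p = 0.0848). Over both days Hrnr was called in 9 of the 17 fits named for Sprr2j-ps.

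Repetin (Rptn) had 1227, 1995 and 499.6 CPM in the mutant libraries, against 878 and 1109 CPM in wild type at 12 dpa. At 14 dpa Rptn had 2049, 856 and 729.6 CPM in the mutant libraries, against 491 and 554 CPM in wild type. Its groups overlapped at 12 dpa and not at 14 dpa, and it stood at 0.77 (edgeR adjusted p = 0.165, SE 0.42) over both days. Cornulin (Crnn) had 15.2, 20.6 and 11.3 CPM in the mutant libraries, against 81.6 and 24.4 CPM in wild type at 12 dpa, with all mutants below wild type. At 14 dpa Crnn had 97.2, 63.4 and 48.03 CPM in the mutant libraries, against 62.4 and 19.3 CPM in wild type, which overlapped. Crnn stood at -1.76 (edgeR adjusted p = 0.0886, SE 0.62) at 12 dpa and 0.77 (adjusted p = 0.379, SE 0.64) at 14 dpa. Flg2 overlapped on both days and stood at -0.00536 (edgeR adjusted p = 0.994, SE 0.49) over both. Filaggrin (Flg), which has no row in the TPM table and so is no member, had 3115, 5087 and 4652 CPM in the mutant libraries, against 7237 and 4912 CPM in wild type at 12 dpa and 12864, 7092 and 5730.1 CPM in the mutant libraries, against 5483 and 3677 CPM in wild type at 14 dpa in the count files. It stood at 0.20 (edgeR adjusted p = 0.566, SE 0.26) over both days, -0.504 (adjusted p = 0.368, SE 0.37) at 12 dpa and 0.90 (adjusted p = 0.0942, SE 0.38) at 14 dpa.

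**Figure D3:**
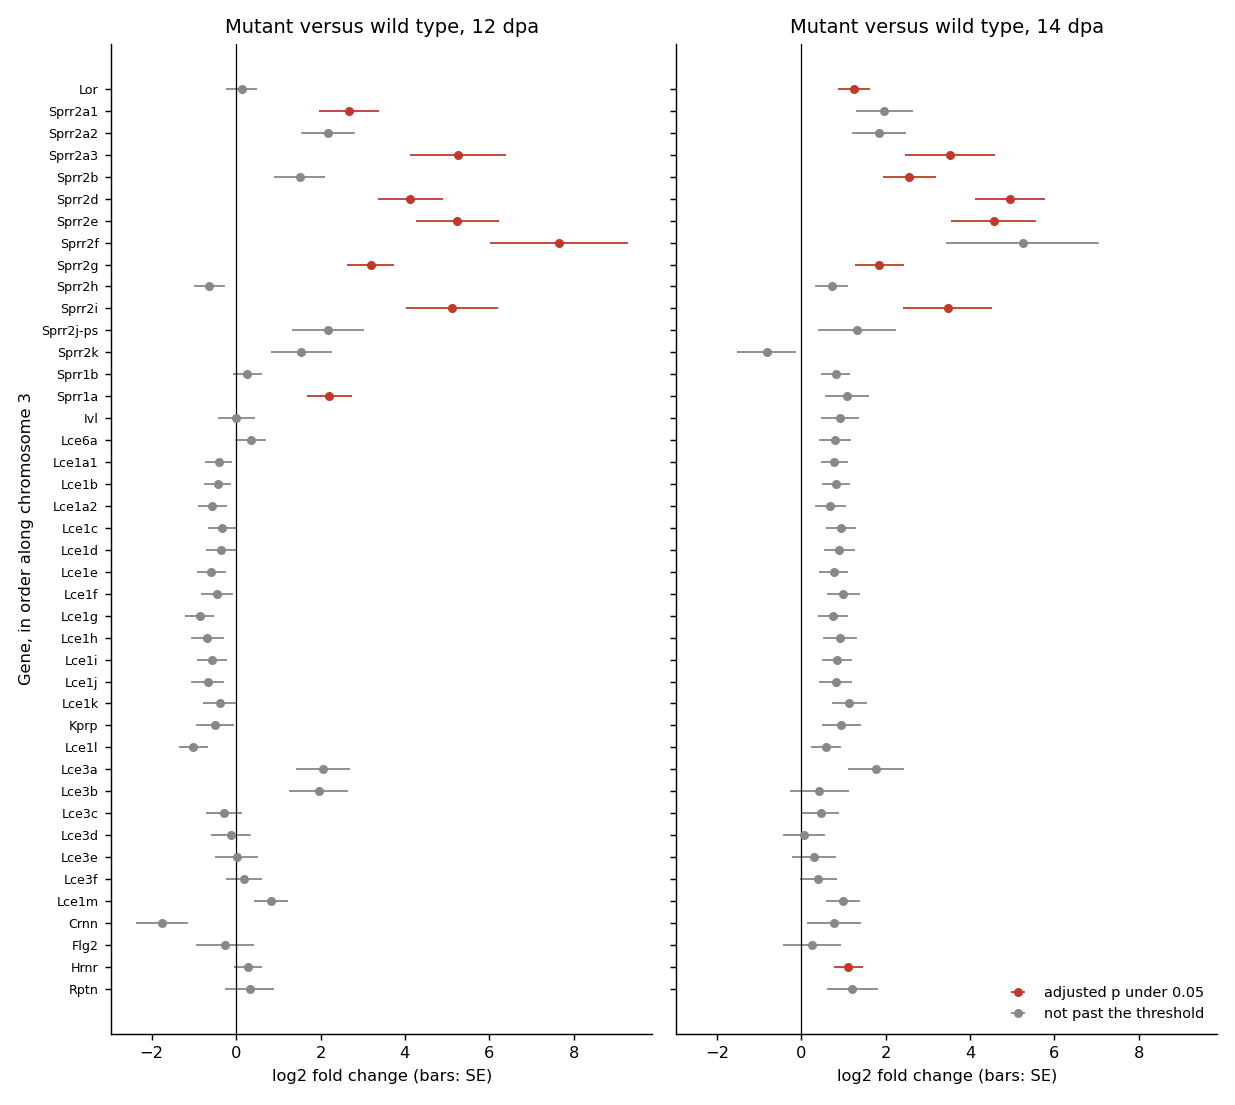
Log2 fold change (points) and SE (bars) of the 42 tested genes in their order along chromosome 3, mutant versus wild type at 12 dpa (left) and 14 dpa (right); red marks an adjusted p under 0.05. The Sprr2 array holds most red points on both days, and the Lce1 genes lie mostly left of 0 at 12 dpa and right of 0 at 14 dpa without passing the threshold.

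Counting libraries rather than fitting them, every mutant library was above every wild type library at 12 dpa for 10 of the 42 genes (23.8%, against 25.7% of all genes tested) and below for 4, which were Crnn, Lce1g, Lce1h and Lce1l (9.52%, against 26.0% of all genes). At 14 dpa it was above for 29 of 42 (69.0%, against 30.8% of all genes) and below for Sprr2k alone (2.38%, against 31.6% of all genes). On both days it was above for 9 genes, Sprr1a and 8 Sprr2 genes (21.4%, against 18.0% of all genes), and below for 0 (19.3% of all genes). Sprr2f belonged to them at 14 dpa by library scaling alone, with 2 counts in both mutant replicate 1 (0.0260 CPM) and wild type replicate 2 (0.0206 CPM). At 12 dpa the share above wild type was near that of all genes and the share below was under it, and at 14 dpa the share above was over that of all genes and the share below was under it.

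The size of the genotype difference changed between days for 0 of 42 genes by edgeR's test (0.0% of all genes; 17 of the 42 at an unadjusted p under 0.05, as were 8.72% of all genes, and 0 of the 42 by DESeq2). For Lce1 the difference of the 2 days' log2 fold changes had a median of 1.39, and 13 of the 14 had an unadjusted p under 0.05. Lce1g had 169, 321 and 224 CPM in the mutant libraries, against 442 and 428 CPM in wild type at 12 dpa and 640.4, 348 and 358 CPM in the mutant libraries, against 329 and 205 CPM in wild type at 14 dpa. Lce1h had 127, 235 and 159 CPM in the mutant libraries, against 301 and 256 CPM in wild type at 12 dpa and 537, 262 and 296 CPM in the mutant libraries, against 257 and 131 CPM in wild type at 14 dpa. In both genes every mutant library was below wild type at 12 dpa and above it at 14 dpa, with a difference of the log2 fold changes of 1.62 (edgeR adjusted p = 0.544, SE 0.49) for Lce1g and 1.59 (adjusted p = 0.545, SE 0.56) for Lce1h.

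Between days within a genotype, edgeR called 0 of 42 genes in mutants (0.0346% of all genes, 0.0148% higher and 0.0198% lower; 29 of the 42 at an unadjusted p under 0.05, against 18.8% of all genes) and 0 in wild type (0.0% of all genes; 7 of the 42 at an unadjusted p under 0.05, against 8.18% of all genes). DESeq2 called 13 higher and 8 lower at 14 than at 12 dpa in mutants (4.99% and 5.53% of all genes), and 0 higher and 2 lower in wild type (0.252% and 0.272% of all genes). In mutants the median log2 fold change of 14 over 12 dpa was -2.30 over Sprr2 (10 of 12 negative), -0.93 over Lce3 (6 of 6 negative) and 0.95 over Lce1 (14 of 14 positive). In wild type it was -1.43 over Sprr2, -1.17 over Lce3 and -0.37 over Lce1. These medians had the same sign in both genotypes for Sprr2 and Lce3 and opposite signs for Lce1.

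The make-up of the set followed from these levels. At 12 dpa Sprr2 held 29.5, 18.5 and 11.1% of the summed TPM of the 44 genes in the mutant libraries, against 3.27 and 9.17% in wild type. At 14 dpa it held 4.30, 7.13 and 9.53% in the mutant libraries, against 1.49 and 3.73% in wild type. The groups did not overlap on either day. Lce1 held 40.4, 52.3 and 61.1% in the mutant libraries, against 71.6 and 68.98% in wild type at 12 dpa, and 69.2, 67.99 and 67.3% in mutants, against 75.1 and 70.4% in wild type at 14 dpa.

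**Figure D4:**
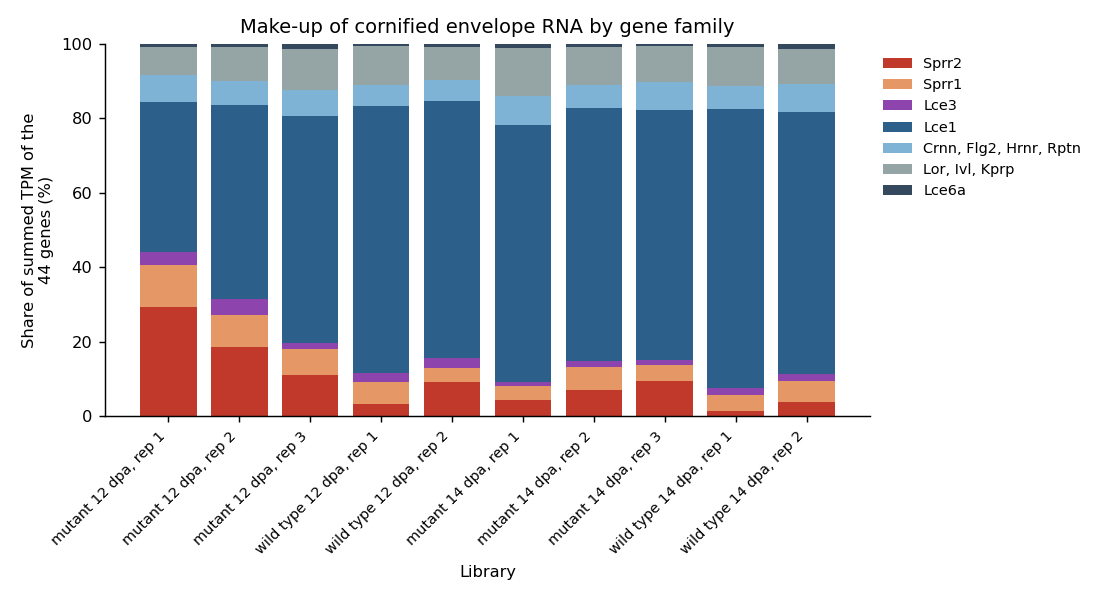
Share of the summed TPM of the 44 genes held by each family, in percent, in each of the 10 libraries. The Sprr2 share is 11.1% to 29.5% in the mutants, against 3.27% and 9.17% in wild type at 12 dpa, and Lce1 is the largest share in every library.

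The other genes of envelope assembly were taken from a list. Of 19 measured genes for crosslinking enzymes and scaffold partners, 12 rose over both days and 1 fell, with a median log2 fold change of 0.61 (21.5% of all genes rose and 22.2% fell). At 14 dpa 16 rose and 1 fell (16.1% and 17.2% of all genes), and at 12 dpa 2 rose and 1 fell (7.18% and 9.34% of all genes). Scel, the envelope precursor sciellin, rose by 1.08 (adjusted p = 0.000752), the transglutaminase Tgm5 by 1.003 (adjusted p = 0.0280) and the protease inhibitor Cst6 by 0.84 (adjusted p = 0.00181) by edgeR. S100a3, a calcium-binding protein of hair cuticle, fell and stood at -2.56 (adjusted p = 0.000600). The desmosomal cadherin Dsc1, the most abundant of those not called, stood at 0.52 (adjusted p = 0.0905). The median of the list was -0.55 with scaling to Krt5 and Krt14 and -0.17 with scaling to Krt1 and Krt10, which is 0.58 and 0.60 above the median of all genes.

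Of 23 granular layer proteins and proteases, 10 rose and 4 fell over both days, with a median of 0.56 (21.5% of all genes rose and 22.2% fell). At 12 dpa 6 rose and 3 fell (7.18% and 9.34% of all genes), and at 14 dpa 11 rose and 2 fell (16.1% and 17.2% of all genes). Klk6, a kallikrein protease, rose by 2.92 (adjusted p = 0.000733) by edgeR. Klk14, another kallikrein, fell and stood at -3.47 (adjusted p = 0.000183), and the peptidylarginine deiminases Padi3 and Padi4 fell and stood at -2.05 (adjusted p = 0.0145) and -1.81 (adjusted p = 0.0198). The protease Asprv1 stood at 0.44 (adjusted p = 0.225) and was not called. Under the keratin scalings the median of these proteins was -0.59 and -0.23, or 0.54 and 0.54 above the median of all genes.

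Of 37 regulators of terminal differentiation, 21 rose and 0 fell over both days, with a median of 0.41 (21.5% of all genes rose and 22.2% fell). At 12 dpa 6 rose and 1 fell (7.18% and 9.34% of all genes), and at 14 dpa 18 rose and 0 fell (16.1% and 17.2% of all genes). They included the transcription factors Pou2f3 at 2.34 (adjusted p = 0.000172), Ehf at 1.28 (adjusted p = 0.000854), Cebpa at 1.24 (adjusted p = 0.000175) and Rora at 1.13 (adjusted p = 0.00218) by edgeR. The AP-1 member Fosl2 stood at 0.22 (adjusted p = 0.171) and was not called, as were Fosl1, at 0.41 (adjusted p = 0.408), and Junb, at 0.0904 (adjusted p = 0.433), named here for the motif above. Whether AP-1 acts on the matches of that motif was not tested. The median of the regulators was -0.76 and -0.44 under the keratin scalings, or 0.36 and 0.32 above that of all genes.

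Markers of the cell types in the tissue moved beside these genes. Over both days 21.5% of all genes rose and 22.2% fell, the shares to set beside the marker counts here and in the next paragraph. Among basal keratinocyte markers 4 of 10 rose and 1 fell, with Krt15 at 2.40 (adjusted p = 0.0335), Krt5 at 1.32 (adjusted p = 0.000123), Bcl11b at 1.08 (adjusted p = 0.000117) and Krt14 at 1.05 (adjusted p = 0.000720) by edgeR, while Itga6 fell and stood at -0.52 (adjusted p = 0.00314) and Col17a1 stood at -0.0990 (adjusted p = 0.609). The median over the 10 was 0.05 over both days and -0.0530 at 12 dpa. Among suprabasal keratins 4 of 8 rose and 0 fell, with Krt2 at 2.49 (adjusted p = 0.00581) and Krt10 at 1.04 (adjusted p = 0.00857), and Krt1, at 0.46 (adjusted p = 0.182), not called. Of these 8, 0 were called at 12 dpa and 3 rose at 14 dpa (7.18% and 16.1% of all genes rose). Among the wound keratins 2 of 4 rose and 0 fell, Krt6a at 1.06 (adjusted p = 0.00224) and Krt17 at 1.01 (adjusted p = 0.00157), while Krt16 stood at 0.25 (adjusted p = 0.484). Of the hard keratins of nail and hair 8 of 10 fell. They summed to 6334 to 11845 CPM in mutants and 36009 to 63248 CPM in wild type at 12 dpa, and to 3297 to 6907 CPM in mutants and 24104 to 26908 CPM in wild type at 14 dpa. 

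Summed marker levels follow the most abundant genes of a list. Basal markers summed to 17462 to 22549.6 CPM in mutants and 13071 to 13303 CPM in wild type at 12 dpa, and 18054 to 19635 CPM in mutants and 10127 to 11307 CPM in wild type at 14 dpa, higher in mutants without overlap on both days; Krt5 and Krt14, given above, are among them. Wound keratins summed to 20975 to 41025 CPM in mutants and 21621 to 26910.4 CPM in wild type at 12 dpa, and 30415 to 35692 CPM in mutants and 12458 to 20376 CPM in wild type at 14 dpa, overlapping at 12 dpa. Blastema fibroblast markers, of which 6 of 6 fell, summed to 4935 to 6815 CPM in mutants and 20714 to 29259 CPM in wild type at 12 dpa, and 2178 to 7912 CPM in mutants and 15199 to 19941 CPM in wild type at 14 dpa. Endothelial markers, of which 3 of 3 fell, summed to 30.4 to 46.98 CPM in mutants and 128 to 154 CPM in wild type at 12 dpa, and 24.5 to 40.01 CPM in mutants and 136 to 153 CPM in wild type at 14 dpa. Both lists were lower in every mutant library. Macrophage markers, of which 2 of 4 fell, summed to 25.9 to 82.3 CPM in mutants and 44.9 to 61.98 CPM in wild type at 12 dpa, and 27.2 to 38.7 CPM in mutants and 44.3 to 47.6 CPM in wild type at 14 dpa. Neutrophil markers, of which 0 of 3 tested were called over both days while Camp and Ngp fell at 14 dpa, summed to 0.214 to 1.07 CPM in mutants and 0.0818 to 0.109 CPM in wild type at 12 dpa, and 0.117 to 0.378 CPM in mutants and 0.671 to 3.60 CPM in wild type at 14 dpa, with Elane at 0 throughout. Sweat gland markers, of which Krt77, also a suprabasal keratin, rose and 0 fell, summed to 14.1 to 28.8 CPM in mutants and 30.7 to 88.8 CPM in wild type at 12 dpa, and 35.9 to 73.9 CPM in mutants and 33.2 to 87.96 CPM in wild type at 14 dpa, lower in mutants at 12 dpa and overlapping at 14 dpa, with Dcpp1 at 0 throughout. The part of these cells in the levels of the envelope genes was not tested.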

How the data were processed

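RNA of 10 digit tip blastema libraries was measured with a stranded total RNA kit, per the labels' protocols. STAR 2.7.8a, RSEM 1.3.0, FastQC and the build GRCm39 are named, without roles, in the notes on processing that the submitters gave. The deposited expected counts were not normalized; of the nonzero ones of the 44 genes, 78.5% were not whole (tolerance 0.001), against 30.9% over all genes, since reads shared by similar genes were divided. The TPM values deposited by the authors are scaled to length and library. Expected counts were rounded and entered edgeR 4.0.16 under R 4.3.3 with filterByExpr (minimum count 10, total 15), TMM factors, 1 robust quasi-likelihood fit of the 4 groups, no covariate. P-values were adjusted over 20216 genes by Benjamini-Hochberg, threshold 0.05; CPM uses TMM-scaled library sizes. Contrasts were mutant minus wild type (each day, and their mean), the difference between days, and 14 minus 12 dpa. The fit was tested on simulated data. Alternatives included DESeq2 1.42.0, limma 3.58.1 on TPM and scaling to keratin counts. Values by library are given for the top 2 of each family in TPM, the single genes, the 5 largest changes called and some others chosen after their values were seen. The members and lists were chosen with earlier results of these data known. Wild type 14 dpa libraries follow the numbers in the titles, which the descriptions reverse. Krt85 and Pi3 were not analysed here.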

Additional observations from a re-analysis of the deposited data

Results flagged for a closer look

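The late cornified envelope gene Lce1g had its 3 mutant libraries below both wild type libraries at 12 dpa and above both at 14 dpa. The difference of its log2 fold changes between days was 1.62 (edgeR adjusted p = 0.544, SE 0.49), which did not pass the threshold. Lce1h showed the same crossing, with a difference of 1.59 (edgeR adjusted p = 0.545, SE 0.56), also not past the threshold. Both were among 13 of the 14 Lce1 genes whose difference had an unadjusted p under 0.05 (8.72% of all genes did), with 0 called after adjustment. Without mutant 14 dpa replicate 1, the library with the conflicting genotype tag, the 14 dpa log2 fold change was 0.40 (adjusted p = 0.347) for Lce1g and 0.52 (adjusted p = 0.308) for Lce1h by edgeR.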

How the results depend on the processing

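In all 17 fits with TMM or RLE factors, without the low-count filter, by DESeq2, by limma on log2(TPM + 1) and log2(TPM + 0.1), with the replicate block and without each library in turn, Sprr1a, Sprr2a1, Sprr2a2, Sprr2a3, Sprr2b, Sprr2d, Sprr2e, Sprr2f, Sprr2g and Sprr2i rose over both days. Lce3a did so in 16, Hrnr in 9, Lce1m and Sprr2j-ps in 8. With scaling to Krt5 and Krt14, the calls of Sprr1a, Sprr2a2, Sprr2b, Sprr2j-ps, Lce3a, Lce1m and Hrnr were lost. With scaling to Krt1 and Krt10, those of Sprr2j-ps, Lce1m and Hrnr were lost. Deviations of same-numbered libraries from their group means correlated at -0.121 to 0.0862. In a group of 2 libraries these deviations mirror each other, so the correlations cannot exclude that replicate numbers pair the samples. With the replicate block 16 rose over both days, 6 at 12 dpa and 7 at 14 dpa (17.0%, 4.04% and 11.8% of all genes). For a wild type group left with 1 library, its spread is taken from the other groups. Without each library in turn, 10 to 15 rose and 0 fell over both days, 1 to 11 rose and 0 to 1 fell at 12 dpa, 1 to 9 rose and 0 fell at 14 dpa (14.4% to 21.3%, 1.27% to 8.37% and 4.05% to 15.3% of all genes rose), and 0 to 4 fell between days in mutants and 0 to 1 in wild type. The lowest counts came without a wild type library: 1 (replicate 1) or 2 (replicate 2) at 12 dpa and 1 (replicate 1) or 3 (replicate 2) at 14 dpa. In the fits without a mutant library, 0.0% to 0.109% of all genes fell between days in mutants and 0.0% to 0.01% in wild type. Following the tag left 0 rising over both days, 0 at 12 dpa and 0 at 14 dpa. Without the low-count filter 3 rose at 12 dpa and 4 at 14 dpa (3.85% and 7.40% of all genes), and 1 fell between days in mutants (0.0966% of all genes). DESeq2 had 13 rising and 2 falling at 12 dpa (11.6% and 12.6% of all genes) and 23 rising at 14 dpa (18.7% of all genes). Between days it had 13 rising and 8 falling in mutants (4.99% and 5.53% of all genes) and 2 falling in wild type (0.272% of all genes). On log2(TPM + 1) 18 rose at 14 dpa and 3 fell between days in mutants (18.6% and 0.719% of all genes), and on log2(TPM + 0.1) 24 and 6 (20.1% and 1.44% of all genes). These 2 scales moved the median log2 fold change of all genes over both days to 0.13 and 0.24. Under them 33.0% and 33.8% of all genes rose over both days, and 9.18% and 9.40% fell. Scaled to Krt5 and Krt14, 7 rose and 22 fell over both days (1.07% and 83.2% of all genes), 6 rose and 23 fell at 12 dpa (0.895% and 72.8%), 2 rose and 2 fell at 14 dpa (0.534% and 76.3%), and 1 fell between days in mutants (0.094%). Scaled to Krt1 and Krt10, 11 rose and 12 fell over both days (1.62% and 46.5% of all genes), 9 rose and 12 fell at 12 dpa (1.14% and 15.7%), and 5 rose and 1 fell at 14 dpa (0.658% and 32.7%). Under that scaling, 1 rose and 13 fell between days in mutants (0.0643% and 6.12% of all genes) and 5 fell in wild type (0.322%). Single genes changed the sign of their log2 fold change over both days as follows, where scaling to Krt5 and Krt14 moved the median of all genes to -1.13 and scaling to Krt1 and Krt10 to -0.76. Scaled to Krt5 and Krt14 the value was -0.47 for Lor, -1.13 for Sprr2h, -0.78 for Sprr2k, -0.62 for Sprr1b, -0.70 for Ivl, -0.59 for Lce6a, -0.97 for Lce1a1, -0.97 for Lce1b, -1.09 for Lce1a2, -0.85 for Lce1c, -0.89 for Lce1d, -1.07 for Lce1e, -0.89 for Lce1f, -1.05 for Lce1h, -1.02 for Lce1i, -1.09 for Lce1j, -0.79 for Lce1k, -0.94 for Kprp, -1.07 for Lce3c, -1.01 for Lce3e, -0.88 for Lce3f, -0.23 for Lce1m, -0.45 for Hrnr and -0.43 for Rptn. Scaled to Krt1 and Krt10 it was -0.0972 for Lor, -0.85 for Sprr2h, -0.37 for Sprr2k, -0.23 for Sprr1b, -0.40 for Ivl, -0.26 for Lce6a, -0.58 for Lce1a1, -0.58 for Lce1b, -0.68 for Lce1a2, -0.47 for Lce1c, -0.51 for Lce1d, -0.70 for Lce1e, -0.52 for Lce1f, -0.70 for Lce1h, -0.65 for Lce1i, -0.71 for Lce1j, -0.41 for Lce1k, -0.58 for Kprp, -0.73 for Lce3c, -0.70 for Lce3e, -0.59 for Lce3f, -0.0493 for Hrnr and -0.20 for Rptn. With the tag followed it was -0.0863 for Sprr2h, -0.24 for Ivl, -0.0376 for Lce6a, -0.21 for Lce1a1, -0.18 for Lce1b, -0.27 for Lce1a2, -0.17 for Lce1c, -0.23 for Lce1d, -0.34 for Lce1e, -0.24 for Lce1f, -0.41 for Lce1h, -0.27 for Lce1i, -0.36 for Lce1j, -0.10 for Lce1k, -0.38 for Kprp, -0.17 for Lce3c and -0.0296 for Rptn. On log2(TPM + 1) it was 0.21 for Lce1g, 0.0757 for Lce1l, 0.18 for Lce3d and 0.26 for Flg2, on log2(TPM + 0.1) 0.21 for Lce1g, 0.0760 for Lce1l, 0.20 for Lce3d and 0.29 for Flg2, and with the replicate block 0.0449 for Lce1g and 0.21 for Lce3d. Without each library in turn it ran from -0.15 to 0.24 for Sprr2h, -0.34 to 0.16 for Lce3d, -0.84 to 0.0701 for Crnn, -0.19 to 0.39 for Lce1a2, -0.11 to 0.31 for Lce1e, -0.16 to 0.34 for Lce1j, -0.36 to 0.31 for Flg2, -0.24 to 0.13 for Lce1g, -0.12 to 0.40 for Lce1h, -0.0764 to 0.39 for Lce1i, -0.14 to 0.35 for Lce3c, -0.13 to 0.36 for Lce3e, -0.0216 to 0.43 for Lce1a1, -0.0210 to 0.43 for Lce1b, -0.0234 to 0.53 for Kprp and -0.40 to 0.0005 for Lce1l. Apart from Hrnr and Lce1m these genes were not called in the main comparison over both days, and the causes were not tested. Depth, at 69998104 counts or more, limits mainly Sprr2f, Sprr2j-ps, Sprr3 and Sprr4, and in wild type at 14 dpa also Sprr2e, Sprr2a3, Sprr2g and Sprr2i. Wild type 14 dpa replicates 1 and 2 held 2 and 42 counts of Sprr2e, 3 and 69 of Sprr2a3, 8 and 19 of Sprr2g, and 17 and 50 of Sprr2i.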
